A study of Homo sapiens with 4 samples.

Results

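The insulin-like growth factor (IGF) system was examined in DU145 cells through 10 genes: the binding protein genes IGFBP2, IGFBP3, IGFBP4, IGFBP6 and IGFBP7, the receptor genes IGF1R, IGF2R and INSR, and the receptor substrate genes IRS1 and IRS2. The family was chosen by the log2 signals of these arrays, because IGFBP3 was among the lowest genes under No.10-3, so that value describes the choice and supports nothing. All 10 were found by their symbol in the platform annotation, with 1 probe set each, among 17687 genes. DU145 is an established human prostate cancer line, and the cells of every condition grew in medium with fetal bovine serum. After 48 h, RNA was taken from cells given No.10-3 at 5 µM, C-30 at 0.5 µM, C-30 at 2 µM or vehicle, whose composition the labels do not give. Both compounds are described as inhibitors of PSF, the RNA-binding protein encoded by SFPQ, and nothing is said here of their structures.

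In this system the ligands IGF1 and IGF2 bind IGF1R, a receptor tyrosine kinase, which phosphorylates the docking proteins IRS1 and IRS2 and through them activates PI3-kinase and AKT. Secreted binding proteins hold the ligands away from the receptor or deliver them to it, and IGFBP3 is the main carrier in blood. IGF2R is no kinase: it takes up and degrades IGF2 and carries mannose 6-phosphate-tagged enzymes to lysosomes. IGF signalling is a known survival pathway of prostate cancer cells.

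Each condition has 1 array, so values carry neither errors nor p-values, and each difference compares 2 arrays. A difference is given on the log2 scale and counted from 1, called 2-fold here, and the 3 treated arrays share the 1 vehicle array. The background level is the 95th percentile of 612 negative control probe sets, 7.06 under No.10-3, 7.11 under C-30 at 0.5 µM, 7.15 under C-30 at 2 µM and 7.32 with vehicle. A gene under that level on both arrays is called within background. The 63 ERCC spike-in probe sets served as a measure of technical spread. Their differences from vehicle had a robust SD of 0.126 under No.10-3, 0.166 under C-30 at 0.5 µM and 0.271 under C-30 at 2 µM. Over genes above background on both arrays it was 0.432, 0.479 and 0.574 in the same order. The spread between cultures of a condition could not be measured. The epithelial keratin genes KRT8, KRT18 and KRT19 and EPCAM lay above background on every array, whereas CDH1, the E-cadherin gene, did not on any. The 3 measured androgen axis genes KLK3, KLK2 and TMPRSS2 were within background, as were the 3 endothelial markers. Of the 4 fibroblast markers COL1A2 alone was above background, and only under C-30 at 0.5 µM. Of the 4 leukocyte markers PTPRC, CD3E and CD79A were within background on every array, and CD68 had 9.50 under No.10-3, 8.55 under C-30 at 0.5 µM and 8.79 under C-30 at 2 µM, against 8.43 with vehicle. CD68 was thus higher on each treated array than with vehicle. The summed signal of the 5 epithelial markers, as log2, was 14.26, 13.58 and 13.01 in the same order of treatments, against 13.61 with vehicle, and the part of these markers in the differences below was not tested.

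Only IGFBP3, IGF1R and IGF2R lay above background, each on all 4 arrays. They are the members on which the results turn, and all 3 had a lower signal on each treated array than with vehicle. The median difference from vehicle over genes above background on both arrays was 0.03 under No.10-3. It was -0.09 under C-30 at 0.5 µM and -0.12 under C-30 at 2 µM. How many genes were lower on all 3 treated arrays was not counted, and IGFBP3 was chosen by its No.10-3 value. IGFBP3, IGF1R and IGF2R are compared with the same vehicle array, and the sizes of their differences varied by treatment. The windows upstream of their transcription starts are shown for these 3 genes. They come from RefSeq on GRCh38.p14 and hold the 250 bases before the start, read 5′ to 3′ on the gene's strand. Capitals mark GC boxes (GGGCGG on either strand), E boxes (CACGTG) and the TATA-like run TATATA. The IGFBP3 window is chr7:45921273-45921522 on the minus strand, the IGF1R window chr15:98648289-98648538 on the plus strand and the IGF2R window chr6:159968832-159969081 on the plus strand.
IGFBP3: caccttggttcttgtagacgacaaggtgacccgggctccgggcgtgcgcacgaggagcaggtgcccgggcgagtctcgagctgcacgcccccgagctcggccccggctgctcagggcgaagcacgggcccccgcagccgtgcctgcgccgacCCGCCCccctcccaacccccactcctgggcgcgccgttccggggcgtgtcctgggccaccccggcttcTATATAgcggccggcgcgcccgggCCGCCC
IGF1R: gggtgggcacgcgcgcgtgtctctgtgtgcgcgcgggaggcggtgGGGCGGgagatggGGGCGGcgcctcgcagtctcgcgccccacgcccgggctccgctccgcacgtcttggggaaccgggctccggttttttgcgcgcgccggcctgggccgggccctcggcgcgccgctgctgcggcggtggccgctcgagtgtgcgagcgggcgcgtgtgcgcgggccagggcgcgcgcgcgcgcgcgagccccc
IGF2R: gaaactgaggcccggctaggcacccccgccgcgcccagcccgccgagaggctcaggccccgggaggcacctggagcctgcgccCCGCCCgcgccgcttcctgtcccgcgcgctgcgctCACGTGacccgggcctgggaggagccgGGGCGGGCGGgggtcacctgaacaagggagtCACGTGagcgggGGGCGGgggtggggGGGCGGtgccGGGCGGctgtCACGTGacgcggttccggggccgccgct

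Windows were found for 9 of the 10 genes, IGFBP7 being the exception, and for 11 starts in all, since IGFBP2 has 3. At least 1 GC box, the site read by SP1-type factors, lay in 10 of the 11 windows, compared with 42.6% of all 35116 RefSeq windows of this length. IGFBP3 and IGF1R had 2 GC boxes each and IGF2R 6, counting overlapping ones. Of the members within background, INSR and IRS1 had 4 each and IRS2 5. IGFBP4 and IGFBP6 had 1 each, and no IGFBP2 window had more than 1. IGFBP3 carried TATATA, which starts at position -30 counted back from the start site, and 3.73% of all windows hold it. IGFBP4 carried the canonical TATAAA at -29 (10.7% of all windows, TTTATA on the other strand included), and neither IGF1R nor IGF2R had either run. The 3 E boxes of IGF2R, at -132, -74 and -28, had no counterpart in the windows of the other members, and 6.34% of all windows hold at least 1. CG dinucleotides numbered 32 in IGFBP3, 48 in IGF1R and 33 in IGF2R, against a median of 11 over all windows. In the members within background they ranged from 4 in an IGFBP2 window to 42 in IRS2, so high counts were not particular to the 3 genes. The forkhead core GTAAACA, or TGTTTAC on the other strand, was found in the IGFBP6 window only among the members (2.98% of all windows), and the motif TGANTCA of AP-1 in none of them (6.57%), while CCAAT or ATTGG lay in 1 of the 3 IGFBP2 windows and in that of IRS2 (32.0%). TATATA was added to the search after these windows had been read. A match is a run of letters and was not tested as a binding site.

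Among the binding proteins, IGFBP3 had a signal of 8.42 under No.10-3, 9.97 under C-30 at 0.5 µM and 9.33 under C-30 at 2 µM, against 10.16 with vehicle. All 3 treated arrays were lower than vehicle, and the lower dose of C-30 lay close to it. The difference from vehicle was -1.74 under No.10-3, which is 3.33-fold lower, -0.19 under C-30 at 0.5 µM and -0.83 under C-30 at 2 µM. Of 5280 genes above background on both arrays, IGFBP3 was the 4th lowest under No.10-3. Among the 9219 genes that entered the comparison by a signal floor at the median of named probe sets, it was 7th, between KATNBL1 at -1.75 and DHCR7 at -1.72. With C-30 it stood 2155th from the lowest of 5191 genes at 0.5 µM and 566th of 5092 at 2 µM. Between the doses of C-30, IGFBP3 differed by -0.64 at 2 µM relative to 0.5 µM, 335th from the lowest of 5382 genes. The robust SD there was 0.152 over the ERCC probe sets and 0.364 over those 5382 genes. The No.10-3 and C-30 doses differ, so the compounds' values are given side by side. An array of bulk RNA reads the culture as a whole, in which fewer cells with a transcript and less of it per cell cannot be told apart.

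The other binding protein genes lay within background on every array, so their values limit what could be seen and do not show that the transcripts were unaltered. IGFBP2 had 3.81 under No.10-3, 3.90 under C-30 at 0.5 µM and 3.83 under C-30 at 2 µM, against 4.19 with vehicle. IGFBP4, whose protein is cut by the protease PAPPA, had 4.73, 4.86 and 4.62 in the same order of treatments, against 4.90 with vehicle. The values of both genes spread over less than a single log2 unit under the background level. IGFBP6, which encodes a binding protein that prefers IGF2, had 4.96 under No.10-3, 5.77 under C-30 at 0.5 µM and 5.48 under C-30 at 2 µM, against 5.74 with vehicle. IGFBP7, a more distant relative whose protein binds the ligands weakly, had 4.23 under No.10-3, 4.14 under C-30 at 0.5 µM and 4.97 under C-30 at 2 µM, against 4.10 with vehicle. IGFBP7 was the only member with a higher signal than vehicle on all 3 treated arrays, by 0.13, 0.04 and 0.87, all within background. IGFBP3 and IGFBP1 are next to each other among the measured genes of chromosome 7, and IGFBP1 was within background on every array, with differences of 0.18, -0.21 and -0.02. TNS3, the tensin gene on the other side of IGFBP3 and named for that place alone, was above background on all arrays and stood at -0.72 under No.10-3, -1.05 under C-30 at 0.5 µM and -1.54 under C-30 at 2 µM. TNS3 was thus lower than vehicle on all 3 treated arrays, lowest under C-30 at 2 µM, while IGFBP3 was lowest under No.10-3. Any link between these genes was not tested, and the neighbours of the other members are not given here.

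**Figure D1:**
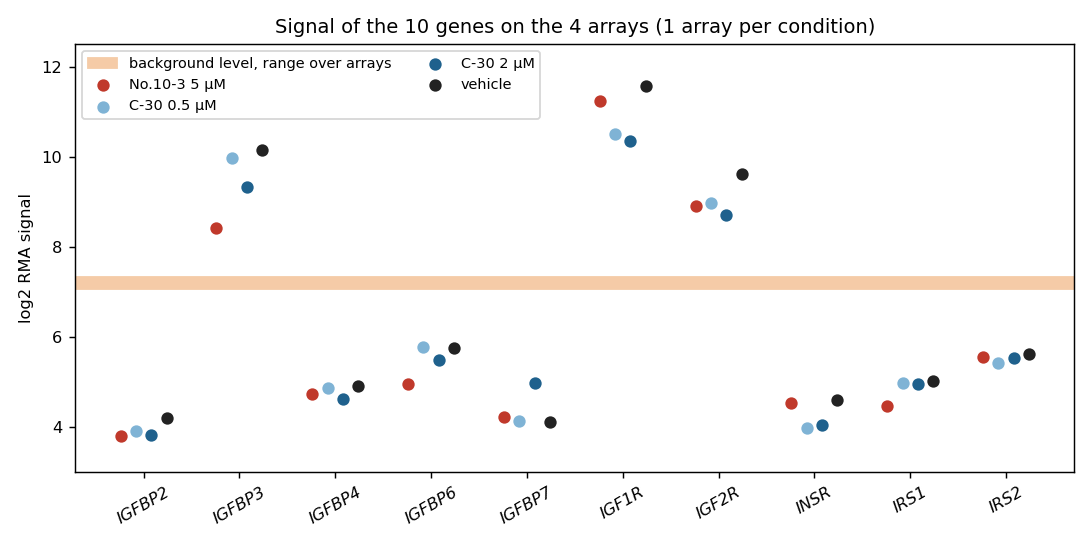
Log2 RMA signal (vertical axis) of the 10 genes on the 4 arrays, 1 point per array, with the range of the background level over the arrays as a band. IGFBP3, IGF1R and IGF2R lie above the band on all 4 arrays, with the vehicle point the highest of each, and the other 7 genes lie below it.

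Of the receptors, IGF1R, which transmits the signal of both ligands, had 11.24 under No.10-3, 10.50 under C-30 at 0.5 µM and 10.35 under C-30 at 2 µM, against 11.58 with vehicle. All 3 treated arrays were lower than vehicle, and the C-30 arrays lay close together. The differences from vehicle were -1.08 under C-30 at 0.5 µM and -1.22 under C-30 at 2 µM, or 2.11-fold and 2.33-fold lower, and -0.33 under No.10-3. At 0.5 µM the difference was -0.98 after a lowess correction for signal, and so just short of 2-fold. IGF1R was 104th from the lowest of 5191 genes above background under C-30 at 0.5 µM, 161st of 5092 at 2 µM and 1009th of 5280 under No.10-3. Between the C-30 doses it differed by -0.14, within the robust SD of the ERCC probe sets.

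IGF2R had 8.90 under No.10-3, 8.98 under C-30 at 0.5 µM and 8.70 under C-30 at 2 µM, against 9.62 with vehicle. The 3 treated arrays lay within 0.28 of each other, and vehicle stood above all of them. The differences from vehicle were -0.71, -0.64 and -0.92 in that order, none past 2-fold, and IGF2R was 202nd, 594th and 402nd from the lowest of the genes above background. INSR, the insulin receptor gene and the closest relative of IGF1R, had 4.53 under No.10-3, 3.99 under C-30 at 0.5 µM and 4.04 under C-30 at 2 µM, against 4.60 with vehicle. INSR was lower under C-30 at both doses, by -0.61 and -0.56, and hardly under No.10-3, at -0.07, but all of these values were within background.

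The substrate genes were within background too. IRS1 had 4.48 under No.10-3, 4.98 under C-30 at 0.5 µM and 4.95 under C-30 at 2 µM, against 5.01 with vehicle, and its difference of -0.06 at 2 µM turned to 0.01 when each array was centred by its median past the floor. IRS2 had 5.56 under No.10-3, 5.43 under C-30 at 0.5 µM and 5.54 under C-30 at 2 µM, against 5.63 with vehicle. Apart from IRS1 under No.10-3, at -0.54, the substrates differed from vehicle by 0.20 or less.

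**Figure D2:**
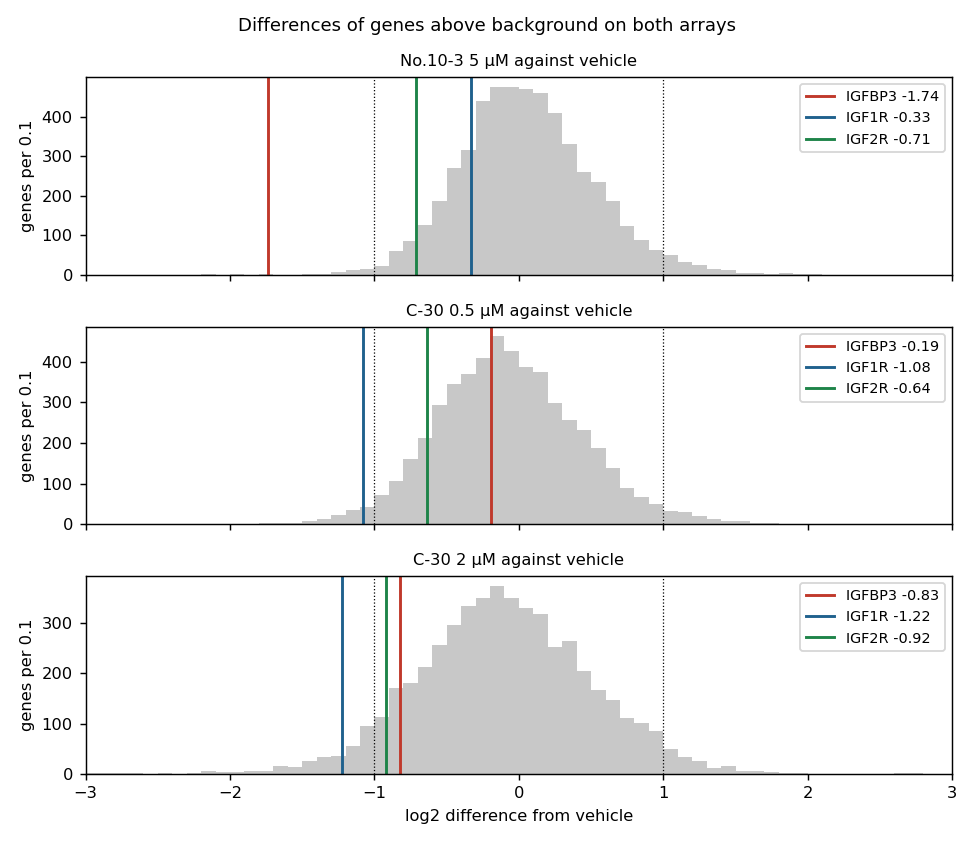
Number of genes (vertical axis, per 0.1 of difference) by log2 difference from vehicle for genes above background on both arrays, with IGFBP3, IGF1R and IGF2R as lines and 2-fold as dotted lines (genes beyond the axis are not drawn). IGFBP3 lies in the far lower tail under No.10-3 at -1.74 and near the centre under C-30 at 0.5 µM at -0.19, while IGF1R passes 2-fold under C-30 at both doses.

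Counted over all 10 members, 9 were lower than vehicle under No.10-3, 8 under C-30 at 0.5 µM and 9 under C-30 at 2 µM, or 8 at 2 µM with arrays centred. The median difference over the 10 was -0.36 under No.10-3, -0.19 under C-30 at 0.5 µM and -0.32 under C-30 at 2 µM, beside 0.00, 0.00 and 0.01 over all 17687 genes. Since 7 of the 10 lay within background, these medians describe mostly signals that cannot be told from it. Past the floor were 5 members against vehicle, IGFBP3, IGFBP6, IGF1R, IGF2R and IRS2, with medians of -0.71, -0.20 and -0.83 over those. A member passed 2-fold downwards in 1 case per treatment: IGFBP3 under No.10-3, where 1.32% of genes past the floor were called lower, and IGF1R under C-30 at 0.5 µM (2.77%) and at 2 µM (6.15%). None passed 2-fold upwards, as 4.36% of genes did under No.10-3, 3.4% under C-30 at 0.5 µM and 4.67% under C-30 at 2 µM. At 1.5-fold in either direction 3, 2 and 3 members were called against vehicle, where 23.1%, 25.6% and 33.5% of genes were, and 1 between the C-30 doses, where 17.8% were. At 1 of 5, the count on each C-30 array is what a single gene gives and says nothing about the family. The IGFBP3 call under No.10-3 is the value by which the family was chosen and supports nothing. The medians and counts given for No.10-3 include that value. Between the C-30 doses no member passed 2-fold (3.57% of genes in either direction), and of the 4 past the floor the median was -0.29.

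The genes most like IGFBP3 were sought by the distance between their 3 differences from vehicle and its own. One of those differences is the No.10-3 value by which the family was chosen. Genes low under No.10-3 are therefore near by construction, and the ranks below describe likeness to that choice and support nothing. Uncharacterised loci and LINC, FAM, KIAA, olfactory receptor, microRNA and small nucleolar RNA genes were left out by their symbols. The search covered 9425 genes past the floor in at least 1 comparison with vehicle. All of these genes share the vehicle array. The nearest were the ephrin ligand gene EFNA1 (distance 0.38), the tight junction gene CLDN4 (0.40), the adaptor gene SKAP2 (0.45), KATNBL1 (0.50), MNT, which encodes a partner of MAX (0.52), and the zinc finger gene ZNF362 (0.55). Of these 6, SKAP2 alone was above background on all arrays, at 7.84 under No.10-3, 9.11 under C-30 at 0.5 µM and 8.84 under C-30 at 2 µM, against 9.30 with vehicle. ZNF362 was above it on 3 arrays and the other 4 genes on none. No other member was among these 6. The nearest members were IGF2R, 259th of 9425 at 1.12, and IGFBP6, 269th at 1.13 but within background, while IGF1R ranked 2572nd at 1.71.

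The rest of the pathway was described by 11 lists with 84 genes, of which 70 were measured and the others were not analysed here. With No.10-3, 1 of 51 genes past the floor passed 2-fold, a share of 1.96% beside 5.68% of all genes. With C-30 at 0.5 µM it was 2 of 53 (3.77% beside 6.17%), and under C-30 at 2 µM 8 of 53 (15.1% beside 10.8%), of which 2 were higher and 6 lower. Between the C-30 doses 2 of 51 passed, 1 each way (3.92% beside 3.57%). The medians over the genes past the floor were 0.03, -0.10 and -0.13 against vehicle, beside 0.05, -0.04 and -0.06 over all genes past the floor.

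The ligand genes were within background: IGF1 had 5.71 under No.10-3, 5.85 under C-30 at 0.5 µM and 5.78 under C-30 at 2 µM, against 5.85 with vehicle. IGF2 had 4.03, 3.69 and 3.61 in the same order, against 4.10 with vehicle, and INS was not analysed here. Neither ligand transcript could thus be measured in these cells. Of the other binding protein genes IGFBP1, IGFBP5 and IGFALS were within background throughout. The related gene IGFBPL1 had 7.74 under No.10-3, 7.10 under C-30 at 0.5 µM and 7.40 under C-30 at 2 µM, against 7.63 with vehicle, and lay under the background level at 0.5 µM alone. Of the 8 genes for proteases of the binding proteins and their inhibitors, 5 were past the floor. Of these 5, 1 passed 2-fold, upwards under C-30 at 2 µM alone, where 4.67% of all genes past the floor did. It was STC1, the stanniocalcin gene whose family of proteins inhibits PAPPA, with 8.61 under No.10-3, 8.47 under C-30 at 0.5 µM and 9.23 under C-30 at 2 µM, against 7.92 with vehicle. STC1 was thus higher on all 3 treated arrays, by 0.69, 0.55 and 1.30. Of the genes for IGFBP3 partners, LRP1, which encodes an endocytic receptor, had 7.97 under No.10-3, 7.40 under C-30 at 0.5 µM and 8.06 under C-30 at 2 µM, against 8.69 with vehicle, and passed 2-fold at 0.5 µM alone, at -1.29.

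Downstream of the receptors, the gene for the kinase AKT2 had 10.38 under No.10-3, 10.00 under C-30 at 0.5 µM and 9.02 under C-30 at 2 µM, against 10.89 with vehicle. AKT2 was lower on every treated array, and its difference of -1.87 under C-30 at 2 µM was the largest among the listed genes in the 4 comparisons. In that comparison MLST8, for a subunit of both mTOR complexes, stood at -1.21 and TSC2, for the tuberin brake on mTOR, at -1.41, while RICTOR, for the defining subunit of mTOR complex 2, stood at 1.39. TSC2 and RICTOR were under the background level on 1 array each, so their differences are inexact. In the list of PI3-kinase, AKT and mTOR genes, 1 of 17 was past 2-fold upwards and 3 downwards under C-30 at 2 µM, where 4.67% and 6.15% of all genes past the floor were, and none either way under No.10-3 or C-30 at 0.5 µM. RHEB, for the small GTPase that activates mTOR, was higher with 2 µM than with 0.5 µM of C-30, at 11.75 against 10.58 (difference 1.17), and SOS1, for a RAS exchange factor, lower, at 8.01 against 9.06 (difference -1.04). Among the adaptors GRB10, for an inhibitor of both receptor kinases, stood at -1.03 under C-30 at 0.5 µM but within background. The kinase gene MAPK3, chosen after its value was seen as the remaining gene of those past 2-fold, stood at -1.14 under C-30 at 2 µM.

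IGF2R shares its sorting route with M6PR, the other mannose 6-phosphate receptor, and with the GGA adaptors, which load both receptors into vesicles. GGA1 had 6.39 under No.10-3, 6.74 under C-30 at 0.5 µM and 6.39 under C-30 at 2 µM, against 7.39 with vehicle, and GGA2 had 6.95, 7.07 and 6.25 in the same order, against 7.60 with vehicle. Both were above background with vehicle alone, so their differences are inexact, and GGA3 was within background on every array. GGA1 passed 2-fold under No.10-3, at -1.01, and just reached it under C-30 at 2 µM, where GGA2 stood at -1.35. M6PR itself was higher than vehicle on the treated arrays, by 0.22, 0.38 and 0.53, where IGF2R was lower. No gene of the lists of negative regulators, FOXO factors or IGF2 mRNA-binding proteins passed 2-fold in any of the 4 comparisons. At most 6, 2 and 2 genes of these lists were past the floor, where 3.57% to 10.8% of all genes passed 2-fold by comparison. So few genes say nothing about these groups.

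**Figure D3:**
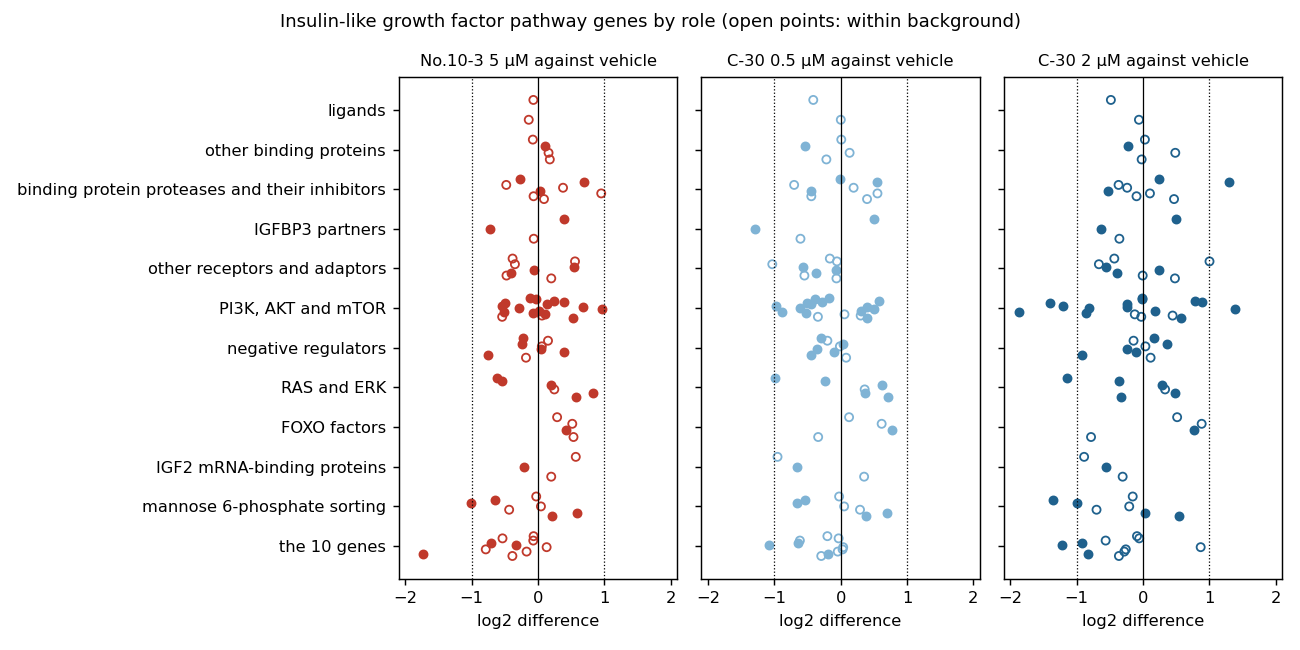
Log2 difference from vehicle (horizontal axis) of the measured pathway genes, in rows by role with the 10 genes at the bottom, 1 panel per treatment, with genes within background as open points and 2-fold as dotted lines. The widest spread is under C-30 at 2 µM, from AKT2 at -1.87 to RICTOR at 1.39, and IGFBP3 at -1.74 is the outermost point under No.10-3.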

How the data were processed

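Gene expression was measured in 1 culture per condition. Biotin labelling of total RNA used a whole-transcript kit, per the labels. The deposited log2 signals per probe set come from Affymetrix Expression Console (version 1.3.0) with RMA, as the submitters' processing notes record, and their log base is inferred from the range. The highest was 19.93, beyond a scanner's range, so 2-fold means a difference of 1 on this scale. The processing genome build is not stated.

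Annotation named 17709 of 24351 probe sets, each with a single symbol, which was updated through Entrez identifiers in a RefSeq table (GRCh38.p14). A gene with several probe sets (20 cases) got their mean. A gene entered a comparison when its higher value reached the floor, 5.56, the median of named probe sets. The number of arrays limits the precision, and no statistical test was made. The members, lists, floor and threshold were chosen with earlier results of these data known. The rule named all members, the 6 pathway genes furthest past 2-fold in each comparison, the ligand genes and the 6 genes nearest to IGFBP3. MAPK3, TNS3 and other genes given as context were named outside it. Other settings tried were 1.5-fold, no floor or a higher one (75th percentile, 7.90), quantile normalization over named genes, centring, lowess correction of differences on signal (fraction 0.3), the brightest probe set, and the second deposited table, whose values differed by 5e-05 or less. The taking of differences and the quantile normalization were tested on simulated arrays, with differences planted in genes well above the floor. The background calls, ranks, likeness search, motif counts and genes of low signal were not covered. Software was Python 3.11.15 (numpy 2.4.6, pandas 2.3.3, statsmodels 0.14.6, matplotlib 3.10.9).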

Additional observations from a re-analysis of the deposited data

How the results depend on the processing

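No paired analysis was possible because each condition has 1 array, and no replicate could be left out. The differences of single members from all 4 comparisons moved by less than the robust SD of the ERCC probe sets in all 200 recomputations, over 5 alternatives. Of these 5, the brightest probe set could not change a member, since each has 1 probe set. The second deposited table differed by 5e-05 or less, so its agreement was fixed in advance too. Of the others, centring turned the sign of IRS1 for C-30 at 2 µM against vehicle (0.01) and against 0.5 µM (0.01). The lowess correction left IGF1R under C-30 at 0.5 µM short of 2-fold. Without a floor the median over members was -0.36 under No.10-3 and -0.32 under C-30 at 2 µM, against vehicle, and -0.11 between the C-30 doses. With a floor at the 75th percentile, and over genes above background on both arrays, a setting chosen after seeing the data, it was -0.64 under C-30 at 0.5 µM. At 1.5-fold the members called numbered 3 under No.10-3, 2 under C-30 at 0.5 µM, 3 under C-30 at 2 µM and 1 between the C-30 doses. At 2-fold, the lowess correction left 0 members called under C-30 at 0.5 µM, in place of 1. The pathway genes called at 1.5-fold numbered 11 of 51 past the floor under No.10-3 and 13 of 53 under C-30 at 0.5 µM. They numbered 17 of 53 under C-30 at 2 µM and 10 of 51 between the doses. Of all genes past the floor, 23.1%, 25.6%, 33.5% and 17.8% were called in the same order. At 2-fold, a floor at the 75th percentile left 0, 1 and 5 pathway genes called under No.10-3 and C-30 at 0.5 and 2 µM, and genes above background on both arrays gave 0, 1 and 4, in place of 1, 2 and 8. Stricter floors leave fewer genes to be called. Of all genes above background on both arrays, 151 were higher and 44 lower of 5280 under No.10-3. Under C-30 they were 120 and 134 of 5191 at 0.5 µM, and 154 and 317 of 5092 at 2 µM. The number of pathway genes that entered under these settings is not given, so their counts are not read as a result about the pathway. Of all genes past 2-fold, 76.7% were higher under No.10-3, or 61.4% with arrays centred, and 43.2% under C-30 at 2 µM, or 55.4% with arrays centred. Signal over background limits 7 of the 10 members.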
